A study of Mus musculus with 6 samples.

Results

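The genes described here are 10 receptors and executors of pyroptosis and NOD-like signalling, chosen by name with earlier results of these data known. The 10 genes are the receptors Nod1, Nod2, Nlrp3, Nlrc5 and Nlrx1, the adaptor Pycard, the caspases Casp1 and Casp4, and the gasdermins Gsdmd and Gsdme. They are 10 of the 57010 genes in the count table, and all 10 were among the 14799 genes that held enough counts to be tested. RNA-seq had been done on 6 libraries of primary neonatal mouse cardiomyocytes (NMCMs) from C57BL/6 mice. The cells of all 6 libraries were kept under hypoxia (HO), 3 with vehicle (HO + Vehicle, V1 to V3) and 3 with β-sitosterol, a plant sterol (HO + β-SITO, T4 to T6). The comparison asks how the transcriptome of hypoxic NMCMs differs with β-SITO. No library of normoxic cells was used here, so the values say nothing of what hypoxia did to these genes, and neither the dose of β-SITO nor the hours of hypoxia are stated for these libraries.

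NOD-like receptors are sensors in the cytosol that respond to microbial fragments and to signs of cell damage. NOD1 and NOD2 recognise pieces of bacterial peptidoglycan and signal through the kinase RIPK2 to NF-kB. NLRP3 instead assembles with the adaptor ASC, the product of Pycard, into an inflammasome that activates caspase-1. Caspase-1, or caspase-11 (the product of mouse Casp4) when it binds lipopolysaccharide, cleaves gasdermin D, whose freed end forms pores in the plasma membrane through which mature IL-1β leaves and the cell dies by pyroptosis. These steps act on protein that is already made, and RNA-seq measures only the transcripts.

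Of the 10 genes, 8 were lower in HO + β-SITO, with an adjusted p under 0.05 and more than a 2-fold change (quasi-likelihood test of edgeR, p-values adjusted by Benjamini-Hochberg), and 0 were higher. Of all tested genes, 10.1% were called lower and 12.8% higher by the same rule. The fall ranged from 2.14-fold for Nlrp3 to 38.7-fold for Nlrc5, a NOD-like receptor that acts as a transactivator of MHC class I genes. The remaining genes were Nlrx1, a receptor located at mitochondria, which was 1.62-fold higher and so under the fold threshold, and Gsdme, another pore-forming gasdermin, whose groups overlapped. The median log2 fold change of the 10 genes was -2.08, against -0.01 for all tested genes. In 9 of the 10 the groups did not overlap, which was also so for 70.5% of all tested genes. Every β-SITO library was below every vehicle library for 8 of the 10, beside 35.8% of all tested genes, and above for 1, beside 34.8%.

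**Figure D1:**
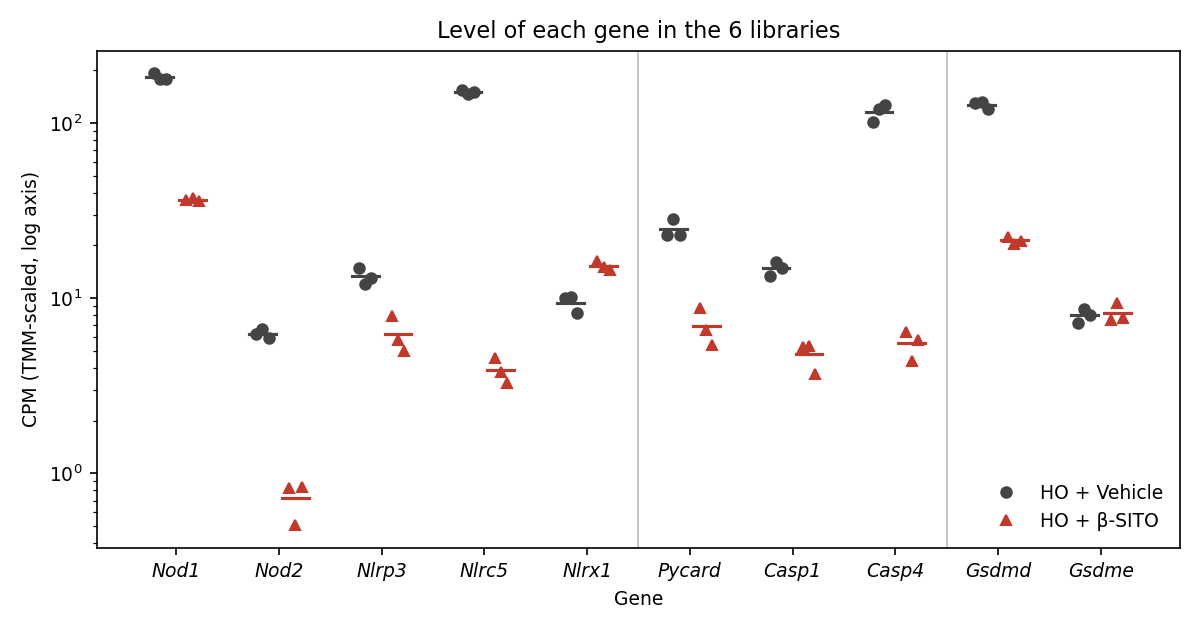
Level (CPM, that is counts corrected for library size with TMM factors, on a log axis) of each of the 10 genes in the 3 HO + Vehicle and the 3 HO + β-SITO libraries. Each point is 1 library and each bar a group mean. The groups lie apart for 9 genes, with β-SITO below vehicle in 8 of them and above it for Nlrx1, and they overlap for Gsdme.

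RefSeq promoter windows on GRCm38.p6, 250 bases before to 50 after a transcription start, were found for 8 of the 10 genes, in 12 entries. Nlrc5 and Gsdmd are named only. On both strands 3 patterns were searched: GAAA, any 2 bases and GAAA (the core of an interferon-stimulated response element), TTC, any 3 bases and GAA (a STAT-type GAS element), and GGGAA, any 3 bases and CC (an NF-kB type site). Of 32851 windows of the same 300 bases, 3.44% held the first, 8.30% the second and 5.78% the third. Among the 8 genes the first pattern was found in 0, the second in 2 (Nod1 and Nlrx1) and the third in 2 (Nlrp3 and Casp4), and no match overlapped a match of another pattern. The 250 upstream bases are shown for Casp4 and Casp1, which lie next to each other and fell to unlike degrees, and for the 3 other genes with a match, including Nlrx1, the gene with a higher level. Capitals mark the match, and Casp1 held none.
Casp4, chr9:5308599-5308848, plus strand: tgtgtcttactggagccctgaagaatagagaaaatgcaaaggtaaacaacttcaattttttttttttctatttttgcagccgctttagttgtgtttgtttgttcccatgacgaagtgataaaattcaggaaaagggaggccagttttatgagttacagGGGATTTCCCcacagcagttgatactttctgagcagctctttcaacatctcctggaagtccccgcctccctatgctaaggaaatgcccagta
Casp1, chr9:5298267-5298516, plus strand: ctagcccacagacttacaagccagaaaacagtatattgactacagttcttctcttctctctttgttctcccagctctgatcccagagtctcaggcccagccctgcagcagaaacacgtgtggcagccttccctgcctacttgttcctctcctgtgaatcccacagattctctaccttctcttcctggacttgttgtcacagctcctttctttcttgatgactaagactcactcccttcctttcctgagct
Nlrp3, chr11:59541319-59541568, plus strand: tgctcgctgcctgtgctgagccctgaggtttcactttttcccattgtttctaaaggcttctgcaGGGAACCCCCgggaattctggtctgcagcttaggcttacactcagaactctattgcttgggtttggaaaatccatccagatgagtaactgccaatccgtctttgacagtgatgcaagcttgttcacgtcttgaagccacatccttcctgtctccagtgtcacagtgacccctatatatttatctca
Nod1, chr6:54971662-54971911, minus strand: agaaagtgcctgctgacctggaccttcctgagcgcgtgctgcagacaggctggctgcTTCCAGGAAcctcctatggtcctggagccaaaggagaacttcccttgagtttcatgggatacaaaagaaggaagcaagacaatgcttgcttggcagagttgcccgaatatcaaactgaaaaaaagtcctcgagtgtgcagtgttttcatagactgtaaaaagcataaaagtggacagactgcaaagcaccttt
Nlrx1, chr9:44268600-44268849, minus strand: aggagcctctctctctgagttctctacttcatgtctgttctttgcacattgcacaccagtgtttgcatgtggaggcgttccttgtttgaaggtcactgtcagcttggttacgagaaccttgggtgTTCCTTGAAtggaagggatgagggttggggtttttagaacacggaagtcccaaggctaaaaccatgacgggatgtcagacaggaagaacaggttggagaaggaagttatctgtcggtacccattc

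The Casp4 match reads as the pattern on the opposite strand and lies 92 to 83 bases before the start shown, the first of 2 entries, and 103 to 94 bases before the other. The Nlrx1 match lies 125 to 117 bases before the start shown and 233 to 225 before its other start, and these windows overlap. The matches of Nlrp3 and Nod1 lie 186 to 177 and 193 to 185 bases before their starts. The Nlrp3 and Nod1 windows belong to the second of their entries, the windows of the first held none, and counts per gene do not tell which start was used. A match is a description of the letters and was not tested for binding.

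Among the receptors, 4 of 5 were lower in HO + β-SITO, beside 10.1% of all tested genes. Nod1 (GRCm39 chr6:54900934-54949597, minus strand), the sensor of peptidoglycan found mostly in Gram-negative bacteria, had 192.0, 179.0 and 178.8 CPM in V1 to V3 and 36.5, 37.1 and 36.1 CPM in T4 to T6. The 3 β-SITO libraries lay close together and far under the lowest vehicle library. The log2 fold change was -2.33 (SE 0.0609, 95% confidence interval -2.46 to -2.20, adjusted p = 2.88e-14), a 5.01-fold fall. Nod2 (chr8:89373943-89415102, plus strand), the sensor of muramyl dipeptide, was far less abundant, with 6.25, 6.71 and 5.89 CPM in V1 to V3 and 0.822, 0.506 and 0.833 CPM in T4 to T6. All β-SITO libraries were below all vehicle libraries, on 9 to 16 counts against 95 to 107. Nod2 fell by 3.10 on the log2 scale (SE 0.216, adjusted p = 4.66e-09), an 8.59-fold fall, with the widest interval of the 10 genes (-3.56 to -2.64).

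Nlrp3 (chr11:59432394-59457782, plus strand), the inflammasome sensor, showed the smallest change among the genes called. It had 14.8, 12.1 and 13.1 CPM in V1 to V3 and 7.86, 5.79 and 4.997 CPM in T4 to T6. The groups did not overlap, and T4 was the highest β-SITO library. The log2 fold change was -1.10 (SE 0.149, interval -1.41 to -0.78, adjusted p = 9.84e-06), so the interval reached below the 2-fold threshold. The call depended on 1 library in each group: the value was -0.99 without V1 and -0.95 without T6, both under 2-fold. It was also lost with upper quartile normalization or library size only (-0.95 in both) and in edgeR's glmTreat test against 2-fold (adjusted p = 0.515).

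Nlrc5 (chr8:95160984-95253900, plus strand) changed most. It had 154.2, 146.4 and 149.99 CPM in V1 to V3 and 4.57, 3.77 and 3.28 CPM in T4 to T6. Vehicle libraries held 2335 to 2442 counts of Nlrc5 and β-SITO libraries 63 to 89, with no overlap. The log2 fold change was -5.27 (SE 0.0931, interval -5.47 to -5.07, adjusted p = 3.66e-16), and 1.24% of all tested genes had a lower value. The lncRNA 9330175E14Rik overlaps Nlrc5 on the opposite strand and held 167 to 197 counts in vehicle and 1 to 3 in β-SITO, at least 69.3-fold lower against a floor of 3 counts per library. Its fitted test gave an adjusted p of 3.92e-12. Whether counting used the strand is not stated. The overlap was taken from the gene spans and overlap of exons was not checked. How far reads of the 2 genes can be told apart is therefore not known.

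Nlrx1 (chr9:44164014-44179896, minus strand), known as a brake on antiviral signalling, moved the other way. It had 9.98, 10.1 and 8.24 CPM in V1 to V3 and 16.3, 15.0 and 14.4 CPM in T4 to T6. Every β-SITO library was above every vehicle library. The log2 fold change was 0.69 (SE 0.107, interval 0.46 to 0.92, adjusted p = 3.8e-05), which passed the adjusted p but not the fold threshold. With no fold threshold 1 of the 10 genes was therefore higher, beside 33.0% of all tested genes, and 8 were lower, beside 33.8%.

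The adaptor and both caspases were lower in HO + β-SITO (3 of 3), beside 10.1% of all tested genes. Pycard (chr7:127588880-127593039, minus strand) had 23.1, 28.3 and 22.8 CPM in V1 to V3 and 8.84, 6.58 and 5.41 CPM in T4 to T6, with no overlap. It fell by 1.83 on the log2 scale (SE 0.143, interval -2.13 to -1.52, adjusted p = 2.01e-08), a 3.55-fold fall. Casp1 (chr9:5298508-5307290, plus strand), the protease that matures IL-1β and IL-18, had 13.5, 16.2 and 14.9 CPM in V1 to V3 and 5.29, 5.34 and 3.70 CPM in T4 to T6. Its groups were also separate, and it fell by 1.64 on the log2 scale (SE 0.140, interval -1.94 to -1.34, adjusted p = 5.33e-08), a 3.11-fold fall.

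Casp4 (chr9:5308828-5336783, plus strand) starts 1537 bases after the end of Casp1 on the same strand and fell further. It had 101.1, 120.4 and 127.2 CPM in V1 to V3 and 6.42, 4.38 and 5.78 CPM in T4 to T6. The lowest vehicle library, V1, was still far above the highest β-SITO library. The log2 fold change was -4.39 (SE 0.119, interval -4.64 to -4.13, adjusted p = 4.47e-14), a 20.9-fold fall.

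The gasdermins differed in response. Gsdmd (chr15:75734176-75739257, plus strand), the pore former cleaved by both caspases, had 129.4, 131.7 and 120.2 CPM in V1 to V3 and 22.5, 20.5 and 21.3 CPM in T4 to T6. The groups were far apart, and the log2 fold change was -2.57 (SE 0.0680, interval -2.71 to -2.42, adjusted p = 3.32e-14), a 5.93-fold fall. Gsdme (chr6:50165868-50240842, minus strand) had 7.26, 8.65 and 7.996 CPM in V1 to V3 and 7.55, 9.33 and 7.76 CPM in T4 to T6. Its groups overlapped, with a log2 fold change of 0.04 (SE 0.128, interval -0.23 to 0.31, adjusted p = 0.794), so a change of the size seen for Gsdmd lies outside the interval. The protein-coding gene Pals2 overlaps Gsdme on the opposite strand, with 639 to 838 counts across the libraries against 115 to 166 for Gsdme, and its log2 fold change was -0.02 (adjusted p = 0.78). Here too overlap of exons was not checked, so how far reads of the 2 genes can be told apart without the strand is not known.

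**Figure D2:**
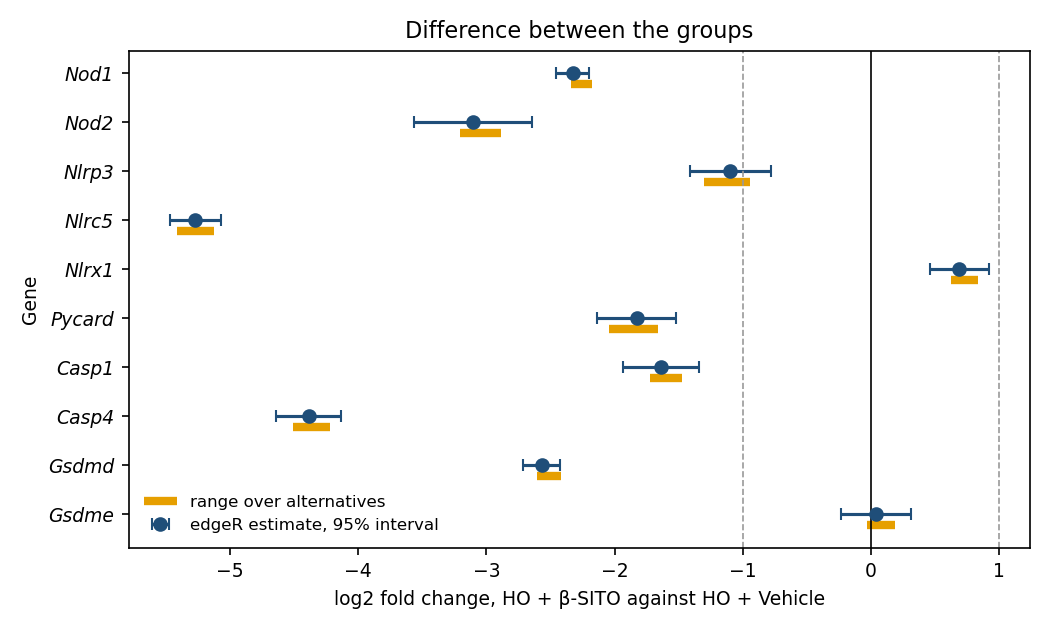
Log2 fold change of HO + β-SITO against HO + Vehicle for each of the 10 genes, with 95% confidence intervals from edgeR's fit on 3 libraries per group. Values run from -5.27 for Nlrc5 to 0.69 for Nlrx1, and the interval of Gsdme spans 0.

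**Figure D3:**
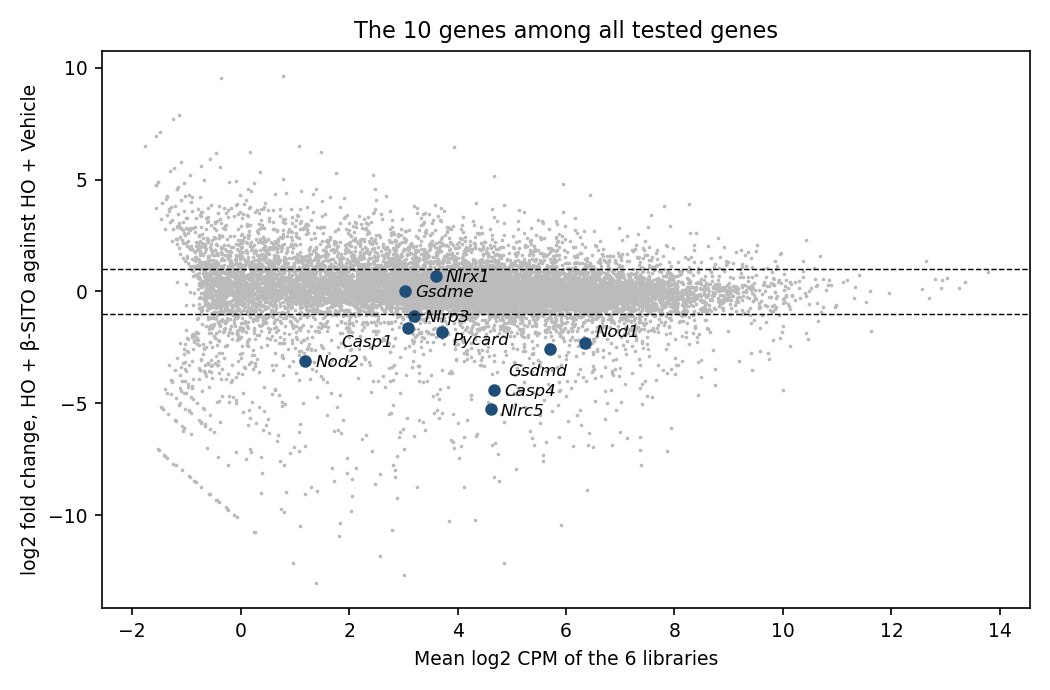
Log2 fold change of HO + β-SITO against HO + Vehicle plotted against mean expression (log2 CPM) for the 14799 tested genes, with the 10 genes marked. Nlrc5 and Casp4 lie lowest of the 10, and Gsdme lies near 0.

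Since the libraries are 3 against 3, an exact two-sided permutation test of a single gene cannot go below p = 0.1, which was the value for each of the 9 genes without overlap, and Gsdme gave p = 0.7. The spread among β-SITO libraries varied between genes, with a coefficient of variation of 25.8% for Nod2, 25.1% for Pycard and 23.8% for Nlrp3, against 1.41% for Nod1 and 4.56% for Gsdmd. In the vehicle group it ranged from 2.62% (Nlrc5) to 12.5% (Pycard). T4 was the highest β-SITO library for 6 of the 10 genes and T6 the lowest for 6.

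Summed over the 10 genes, the level was 651.5, 659.5 and 649.2 CPM in V1 to V3 and 116.6, 108.3 and 103.5 CPM in T4 to T6, a log2 ratio of -2.58. Most of the vehicle sum came from Nod1, Nlrc5, Gsdmd and Casp4. Per kilobase of exon, the scale on which genes can be set side by side, Gsdmd was highest in vehicle at 53.5 ± 2.55 CPM per kb (SD, n = 3), followed by Nod1 at 36.1 ± 1.49, Casp4 at 31.3 ± 3.66 and Nlrc5 at 17.7 ± 0.464 CPM per kb. Casp1 (9.92 ± 0.910), Pycard (6.50 ± 0.812), Nlrp3 (3.28 ± 0.334), Nlrx1 (1.64 ± 0.180), Nod2 (1.25 ± 0.0819) and Gsdme (0.626 ± 0.0545 CPM per kb) came next, and no neighbours in this order overlapped.

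In HO + β-SITO the order was different below the first 2 places. Gsdmd (9.01 ± 0.411 CPM per kb) and Nod1 (7.20 ± 0.102) were still highest. Casp1 (3.19 ± 0.625) and Nlrx1 (2.65 ± 0.166) followed and overlapped each other, and so did Pycard (1.83 ± 0.458), Nlrp3 (1.53 ± 0.365) and Casp4 (1.49 ± 0.281 CPM per kb). Gsdme (0.645 ± 0.0763), Nlrc5 (0.456 ± 0.0770) and Nod2 (0.144 ± 0.0371 CPM per kb) were lowest. Nlrc5 thus went from place 4 to place 9, and Nlrx1 from place 8 to place 4. The order depends on the length taken for a gene. With the length of 1 principal transcript, Casp4 (81.0 ± 9.47) had a higher mean than Gsdmd (70.9 ± 3.39 CPM per kb) in vehicle. Their libraries overlapped, and Casp4 was the lower of them in V1. Gsdme then stood at place 8. In β-SITO, with that length, Nlrx1 stood at place 3, Casp4 at place 4, Gsdme (3.28 ± 0.389 CPM per kb) at place 5 and Casp1 (3.19 ± 0.625) at place 6, and neighbours among these overlapped. Nlrc5 kept place 9 there. Gsdmd, Nod1 and Casp4 held the first 3 places in vehicle with either length.

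Ratios of counts within a library do not depend on the scaling between libraries, and 4 pairs of like genes were compared in this way. The ratio of Casp4 to Casp1 was 7.496, 7.43 and 8.50 in V1 to V3 and 1.21, 0.822 and 1.56 in T4 to T6. Casp4 reads thus outnumbered Casp1 reads in every vehicle library, and in T5 they did not. The ratio of Gsdmd to Gsdme was 17.7, 15.2 and 15.0 in V1 to V3 and 2.97, 2.20 and 2.74 in T4 to T6. The ratio of Nlrc5 to Nlrx1 was 15.4, 14.5 and 18.1 in V1 to V3 and 0.282, 0.252 and 0.229 in T4 to T6, so the gene with more reads changed between the groups. The ratio of Nod2 to Nod1 moved least, from 0.0327, 0.0376 and 0.0331 to 0.0232, 0.0144 and 0.0238. On the log2 scale, with a pseudocount of 0.5, the differences between the group means were -2.75, -2.61, -5.97 and -0.79. None of the 4 ratios overlapped between the groups, and each gave p = 0.1 in an exact two-sided permutation test (0.1 after Benjamini-Hochberg adjustment over the 4), the smallest value that this design allows. These differences follow from the fold changes of the single genes given above and are not separate evidence. The share of other gene pairs without overlap was not computed.

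**Figure D4:**
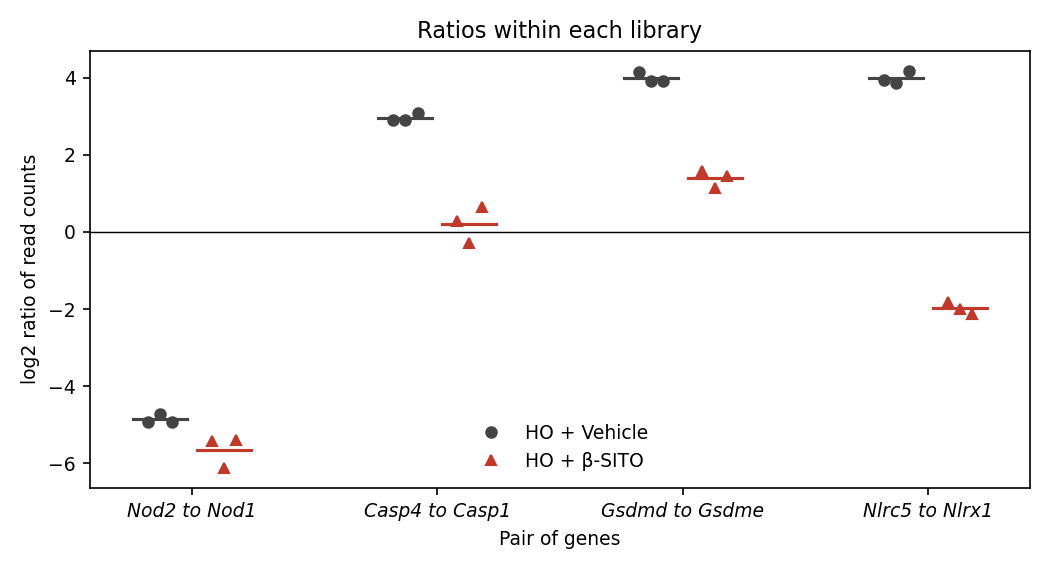
Ratio of counts of 4 gene pairs within each library (log axis), 3 HO + Vehicle and 3 HO + β-SITO libraries, each point 1 library. Every ratio was lower in HO + β-SITO, by -0.79 (Nod2 to Nod1) to -5.97 (Nlrc5 to Nlrx1) on the log2 scale.

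Around these 10 genes, 75 genes of the same pathways were listed in 6 groups, also with earlier results of these data known, and 60 genes were tested. Of these, 27 were lower, 5 were higher and 28 were not called, with a median log2 fold change of -0.65, beside 10.1% lower and 12.8% higher among all tested genes. The group of IL-1 family ligands and receptors had 8 of 9 tested members lower and 0 higher (median -1.81). Il1b, which encodes the cytokine that caspase-1 matures, held 3124, 3522 and 3447 counts in V1 to V3 and 4, 1 and 2 counts in T4 to T6. Il1a, the related cytokine, was at 93.2 ± 5.89 CPM in vehicle and 0.232 ± 0.113 CPM in β-SITO (SD, n = 3; log2 fold change -8.62, adjusted p = 4.33e-16). Il1rn, the antagonist of the IL-1 receptor, fell with them, from 218.4 ± 3.50 to 3.76 ± 0.469 CPM (-5.86, adjusted p = 6.39e-17). Il18, the other cytokine cleaved by caspase-1, fell less, from 4.59 ± 0.131 to 1.85 ± 0.588 CPM (-1.30, adjusted p = 6.67e-05).

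In the relay from NOD1 and NOD2, 6 of 18 tested members were lower and 0 higher (median -0.40), beside 10.1% and 12.8% of all tested genes. Ripk2, the kinase both receptors bind, fell from 272.8 ± 17.2 to 12.4 ± 0.560 CPM (log2 fold change -4.46, adjusted p = 2.56e-16). Slc15a3, a transporter that brings peptidoglycan fragments into the cytosol, fell from 527.4 ± 12.9 to 24.6 ± 3.13 CPM (-4.42, adjusted p = 7.1e-16). Tnfaip3, the deubiquitinase A20 that restrains NF-kB, fell from 236.7 ± 8.46 to 11.6 ± 1.45 CPM (-4.36). Thus a brake on the relay was among the genes that fell, and 12 of the 18 members were not called.

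The inflammasome cofactors were mixed, with 4 lower and 3 higher of 11 tested (median -0.61), beside 10.1% and 12.8% of all tested genes. Gbp2 (2449 ± 128 to 11.4 ± 0.452 CPM), Gbp5 (602.5 ± 34.9 to 3.73 ± 0.746 CPM) and Gbp3 (780.3 ± 65.6 to 9.58 ± 2.65 CPM), guanylate-binding proteins that open bacteria and vacuoles to caspase-11, had log2 fold changes of -7.75, -7.33 and -6.35. These are members of a family with similar sequences, and how reads shared between them were counted is not stated. Ninj1, which ruptures the membrane after gasdermin pores have formed, fell from 125.9 ± 8.21 to 30.0 ± 1.85 CPM (-2.07, adjusted p = 7.74e-13). Nek7, the kinase that NLRP3 needs to assemble, was at 104.0 ± 9.14 and 94.6 ± 3.48 CPM (-0.14, interval -0.28 to 0.01, adjusted p = 0.0899). The 3 higher genes, named after their values were seen, were Txnip, a partner of NLRP3 (268.1 ± 15.1 to 775.0 ± 42.3 CPM, 1.53, adjusted p = 1.13e-11), Card9 (1.59 ± 0.234 to 4.19 ± 0.513 CPM, 1.40, adjusted p = 2.03e-05) and Ptpn22 (0.523 ± 0.196 to 1.06 ± 0.114 CPM, 1.01, adjusted p = 0.0177). Card9 is an adaptor of innate receptors and Ptpn22 a tyrosine phosphatase. Ptpn22 was not called by DESeq2, nor without V3 or without T4.

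**Figure D5:**
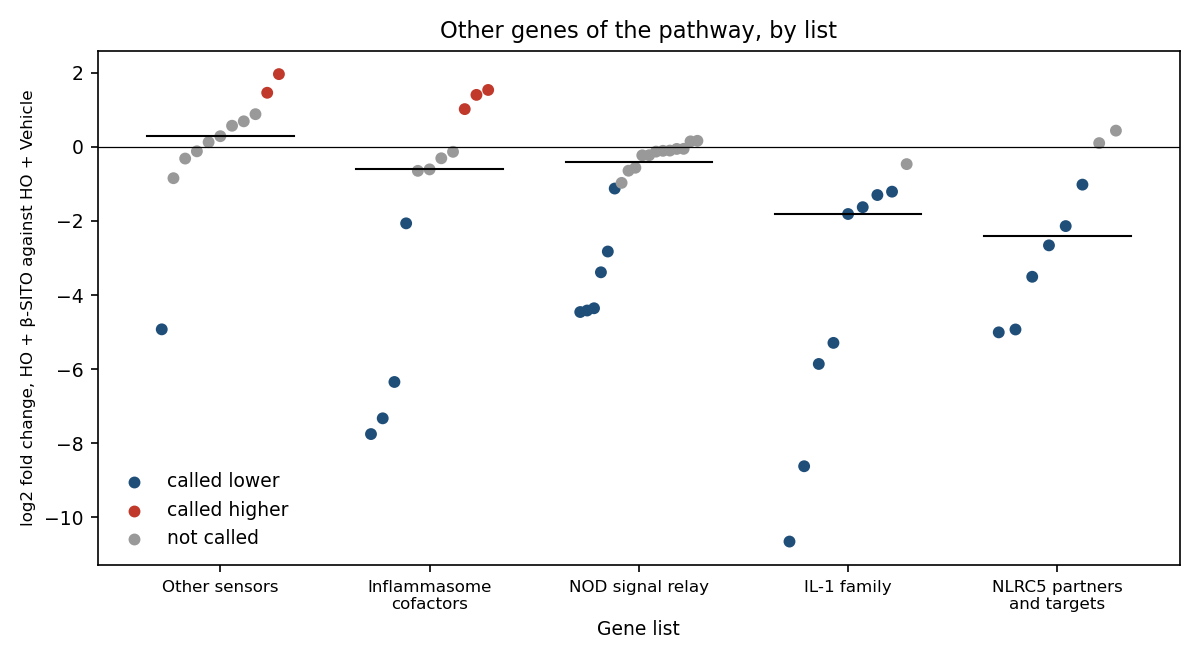
Log2 fold change of HO + β-SITO against HO + Vehicle for the tested pathway genes of 5 of the 6 groups, 1 point per gene and a line at each median. The medians run from -2.40 for the partners and targets of NLRC5 to 0.28 for the other sensors.

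Among 16 other sensors, 11 were tested, of which 1 was lower and 2 were higher (median 0.28), close to the 10.1% and 12.8% of all tested genes. Ciita, the class II counterpart of NLRC5, was the one that fell, from 45, 39 and 55 counts in V1 to V3 to 1, 0 and 4 counts in T4 to T6 (log2 fold change -4.93, adjusted p = 1.65e-07). Nlrp1b, an inflammasome sensor, rose on few reads, from 6, 2 and 2 counts to 13, 13 and 21 counts (1.96, adjusted p = 0.00215), and Nwd1 rose from 0.294 ± 0.222 to 0.812 ± 0.0736 CPM (1.46, adjusted p = 0.013) but was not called by DESeq2 or without V3. Nlrp1b has a close paralog, so its reads may be split. Aim2, the sensor of cytosolic DNA, was at 20.8 ± 2.17 and 11.6 ± 0.824 CPM (-0.85, adjusted p = 2.16e-06). Nlrc4 was at 2.25 ± 0.198 and 3.33 ± 0.412 CPM (0.57, adjusted p = 0.0175). Neither gene passed 2-fold. Nlrp2, Nlrp6 and Nlrp12 had 0 counts in every library, which allows up to 0.154 to 0.189 CPM per library at 3 counts (counting error only).

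Of the partners and targets of NLRC5, 6 of 8 were lower and 0 higher (median -2.40), beside 10.1% and 12.8% of all tested genes. With no fold threshold 1 was higher, the partner Rfxap, named after its value was seen (log2 fold change 0.43, adjusted p = 0.0026). Tap1, the peptide transporter of the class I pathway, fell from 613.5 ± 16.2 to 19.1 ± 1.09 CPM (log2 fold change -5.01, adjusted p = 5.89e-17), and Psmb9, an immunoproteasome subunit, from 128.6 ± 12.0 to 4.21 ± 0.361 CPM (-4.93, adjusted p = 1.18e-15). H2-K1, a class I heavy chain of a family with similar members, fell from 2312 ± 48.2 to 203.3 ± 10.3 CPM (-3.51, adjusted p = 6.98e-16). Casp12, an inflammatory caspase of the same cluster as Casp1 and Casp4, fell from 78.4 ± 8.51 to 31.2 ± 2.56 CPM (-1.33, adjusted p = 2e-09). The Gsdma and Gsdmc genes held at most 2 counts in any library, so Gsdmd and Gsdme were the gasdermins measurable at this depth.

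Libraries held 16694734 to 18460522 counts, and markers of several cell types were present. All 9 cardiomyocyte markers were tested, with 0 lower and 2 higher (Myh7 and Nppa), beside 10.1% and 12.8% of all tested genes. Their summed level was 5385 to 6344 CPM in vehicle and 4964 to 8454 CPM in β-SITO, of which Nppa held 416.3 and 1176 CPM on average. With no fold threshold 2 were lower (Tnnt2 and Pln) and 4 higher, beside 33.8% and 33.0% of all tested genes. Of 12 macrophage markers, 2 were lower (Cd14 and Fcgr1) and 7 higher, beside 10.1% and 12.8% of all tested genes. The 7 were Cd68, Csf1r, Lyz2, C1qa, C1qb, C1qc and Mrc1. Mrc1 changed most, from 11.8 to 325.2 CPM (log2 fold change 4.79, adjusted p = 1.04e-14). The macrophage sums were 1388 to 1518 CPM in vehicle and 2869 to 3522 CPM in β-SITO. Adgre1 (151.7 and 145.4 CPM, adjusted p = 0.471) and Ptprc (30.9 and 30.3 CPM, adjusted p = 0.813) were not called. Itgam, the other macrophage marker under 2-fold, was at 26.6 and 36.8 CPM (log2 fold change 0.47, adjusted p = 0.000106), with no overlap. The 5 endothelial markers were all higher (178.2 to 204.5 and 697.0 to 736.6 CPM in sum), and of 7 fibroblast markers 0 were called, with sums of 29590 to 30884 and 43953 to 45005 CPM. With no fold threshold 4 fibroblast markers were higher and 2 lower (Dcn and Postn), beside 33.0% and 33.8% of all tested genes. The fibroblast sum is mostly collagen, and Col3a1 alone was at 10422 and 18850 CPM. Of 6 neutrophil and T cell markers 0 could be tested, and Ly6g, Cd3e and Cd3d were at 0. T4, the β-SITO library with the highest level of 6 of the 10 genes, also had the highest macrophage sum (3522 CPM, against 2885 and 2869 in T5 and T6) and the lowest cardiomyocyte sum (4964 CPM, against 8374 and 8454). Mitochondrially encoded transcripts took 1.19 to 1.32% of counts in vehicle and 1.87 to 2.26% in β-SITO. The part of these markers and transcripts in the results was not tested, and in bulk samples fewer cells of a type and less RNA per cell cannot be told apart. Library names in the β-SITO group carry a suffix that the vehicle names lack, so any difference in how the groups' libraries were prepared cannot be told apart from β-SITO.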

How the data were processed

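RNA-seq was done on 3 HO + Vehicle and 3 HO + β-SITO libraries of NMCMs, grouped by their labels. The authors deposited raw counts per gene, without normalization. The submitters' processing notes name FastQC, HISAT2, featureCounts and GRCm39, and the study used DESeq2. The annotation and the strand setting are not given in the sources used here. The labels name an Illumina TruSeq kit and the methods an ABclonal kit. Whether libraries came from separate cultures is not stated, so p-values measure the spread between these libraries.

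Genes were filtered with filterByExpr and scaled to CPM with TMM factors in edgeR 4.0.16 (R 4.3.3), and the groups were compared by its quasi-likelihood test, with p-values adjusted by Benjamini-Hochberg. A gene was called where it changed more than 2-fold at an adjusted p under 0.05, the threshold of the study. The group was the only term. The biological coefficient of variation was 6.52%, and libraries held 16694734 to 18460522 counts. Gene lengths were not in the table, so union exon lengths of GENCODE vM21 were joined by gene identifier (98.9% of tested genes had one). Promoters were taken from RefSeq (GRCm38.p6), and coordinates of the 2 builds were not mixed.

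The genes named were all 10 members, the 3 genes with the largest absolute log2 fold change in each pathway list, and Il1b, Il18, Ripk2, Nek7, Aim2, Nlrc4, Nlrp1b and Ninj1. Results for certain genes under this rule are not reported here. Members and lists were chosen with earlier results of these data known. Of the 75 listed pathway genes 74 were in the count table, and Irgb10 was not found under that symbol. Alternatives were DESeq2 1.42.0, limma-voom (limma 3.58.1), glmTreat, other normalizations, filters and fold thresholds, another pseudocount and leaving out each library. The length of the principal transcript was added after seeing the data.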

Additional observations from a re-analysis of the deposited data

How the results depend on the processing

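Between 7 and 8 of the 10 genes were lower under every alternative run. The gene lost was Nod2 with a filter of 10 CPM in 3 libraries, under which Nod2 and Gsdme had too few counts to be tested, and Nlrp3 elsewhere. The log2 fold change of Nlrp3 was -0.95 with upper quartile normalization and with library size only, which moved the median of all genes from -0.01 to 0.14, and from -1.30 to -0.95 when 1 library was left out. A glmTreat test against 2-fold gave Nlrp3 an adjusted p of 0.515. Gsdme, never called, ranged from -0.029 (without β-SITO replicate 5) to 0.11 when 1 library was left out.  Without the fold threshold 1 of the 10 genes was higher (Nlrx1), and 9892 of all genes were called in place of 3380. Of the 60 tested pathway genes, 9 were then higher in place of 5 and 38 lower in place of 27. Among all tested genes 33.0% were higher and 33.8% lower without that threshold. The pathway genes called higher numbered 3 with DESeq2 (Card9, Nlrp1b and Txnip), and 1 with glmTreat and with the 10 CPM filter (Txnip), under which 1859 of all genes were called. With library size only, the log2 ratio of the summed level was -2.43 in place of -2.58. No paired analysis was possible because the groups share no replicate number (1 to 3 and 4 to 6). Transcripts under about 1 CPM, such as Nod2 in the β-SITO group, rest on few counts.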
